A study of Mus musculus with 1 sample.

Results

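Serpins are a family of secreted and intracellular proteins, most of which inhibit serine proteases by offering a reactive loop that traps the protease for good. A few have lost this activity and work as chaperones or signalling factors. In the brain, serpins are known above all for limiting the plasminogen activators, thrombin and complement proteases at synapses, vessels and the cell surface. Which serpins the neonatal cortex made, and in which cells, was examined for 7 genes chosen by symbol (*Serpini1*, *Serpine2*, *Serpinh1*, *Serpinb6a*, *Serpinb1a*, *Serpinf1* and *Serping1*) out of 51912 genes listed. The *Serpina3* genes, which are the subject of the study, were left out, and 48 other serpin genes listed beside the 7 served for comparison.

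Untreated wild-type (WT) C57BL/6 mice were used at P0, the day of birth, and dissociated cerebral cortex was profiled by sc-RNA Seq. The study set this tissue beside mice that carry a human *SERPINA3* knock-in switched on by Nestin-Cre; those mice and any further replicates were not analysed here. There was thus 1 WT library with no replicate, and groups of cells could not be tested against each other. The intervals below are exact 95% intervals that cover counting error only.

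The library held 90346034 unique molecular identifiers (UMIs, each marking 1 captured transcript) in 11062 cells, with a median of 7196.5 UMIs per cell. Cells were placed into groups by the marker genes they held. A cell needed UMIs of at least 3 markers of a lineage, and it went to the lineage with the largest share of its markers detected. The gates gave 7442 excitatory neurons (1811 with more deep-layer markers, 5152 with more upper-layer markers, 479 unsplit), 568 inhibitory neurons, 33 Cajal-Retzius cells, 68 intermediate progenitors, 233 dividing progenitors, 438 radial glia or astrocytes and 170 cells of the oligodendrocyte lineage. They also gave 25 endothelial cells, 25 mural cells, 28 microglia or macrophages and 1 ependymal or choroid plexus cell, while no cell passed the fibroblast or the erythroid gate. Vascular cells below are therefore the 50 endothelial and mural cells. The 2027 cells that passed no gate were shallow, with a median of 995 UMIs. Levels are CPM, the summed UMIs of a gene in a group scaled to 1000000 UMIs of the group, mitochondrial ones left out; since transcripts were counted at their 3′ end, they are not divided by gene length.

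The gates were not equally sharp. The endothelial cells held a median of 11 of their 12 markers and the mural cells 8 of 12, and 0 and 1 of them, respectively, sat at the minimum of 3. The mural cells held the pericyte genes *Rgs5* and *Kcnj8* with 1027 and 209 UMIs, but of the smooth muscle genes *Acta2*, *Tagln* and *Myh11* they held 1, 2 and 0 UMIs. Among intermediate progenitors, 54 of 68 cells also came near a second gate, with a median of 3 excitatory markers and 2 radial glia markers detected. Among Cajal-Retzius cells this held for 29 of 33, with a median of 4 excitatory markers, so that 4 cells were left without them. Endothelial cells held a median of 3 radial glia markers and 1 excitatory marker. The part of RNA from neighbouring cells in the low levels below was not tested.

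Over the whole library, *Serpini1* held 3856 UMIs, *Serpine2* 3673, *Serpinb6a* 2481, *Serpinh1* 821, *Serping1* 130, *Serpinf1* 28 and *Serpinb1a* 7. Together these 10996 UMIs made up 93.7% of the UMIs of all serpins, and the 3 most abundant genes alone made up 85.3%. Even the most abundant, *Serpini1*, was found in 22.4% of the cells, and in 66.1% of those cells by a single UMI. *Serpine2* was found in 14.7% of cells, *Serpinb6a* in 17.7%, *Serpinh1* in 3.997%, and *Serping1* in 1.02%.

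The groups differed in how much serpin RNA they held and in which serpin led. The summed level of the 7 genes was 80.0 CPM in upper-layer neurons, 157 CPM in deep-layer neurons and 165 CPM in inhibitory neurons. It was 228 CPM in radial glia or astrocytes, 552 CPM in the oligodendrocyte lineage, 688 CPM in endothelial cells and 1476 CPM in mural cells. *Serpini1* gave 68.6% of the serpin UMIs of inhibitory neurons and 47.2% of those of deep-layer neurons. *Serpine2* gave 89.6% in the oligodendrocyte lineage and 48.6% in mural cells, *Serpinh1* gave 59.0% in endothelial cells and 38.5% in radial glia or astrocytes, and *Serpinb6a* gave 63.6% of the 55 serpin UMIs of Cajal-Retzius cells. Intermediate progenitors, with 60 serpin UMIs, were the group in which *Serping1* had its largest share, 33.3%.

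**Figure D1:**
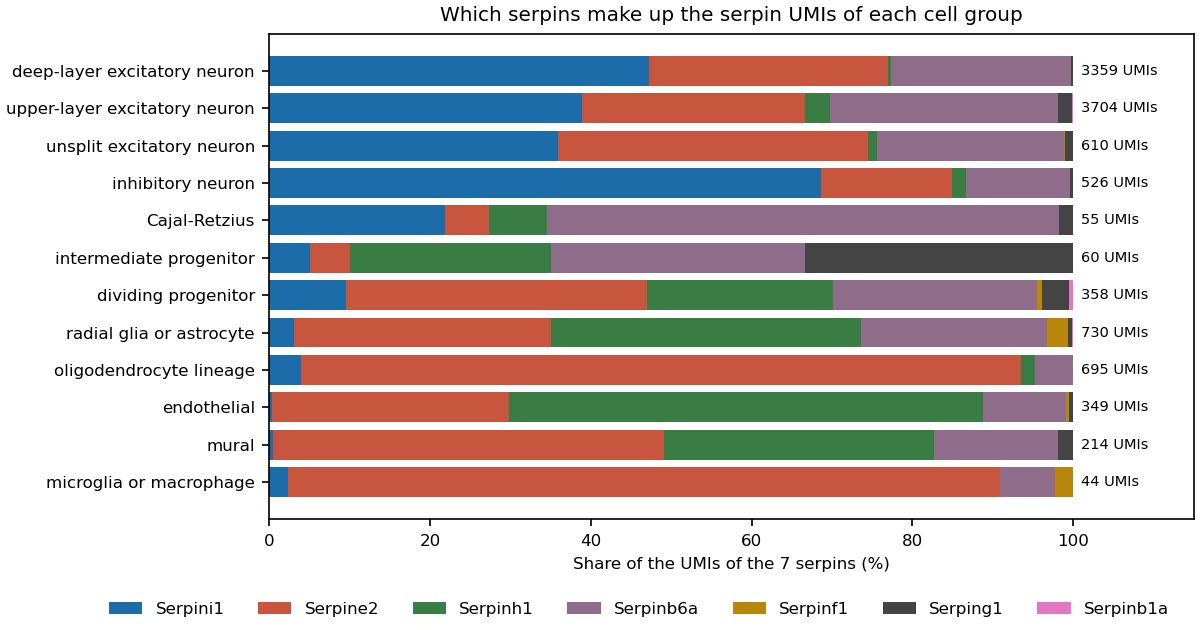
Share of the UMIs of the 7 serpins that each gene contributed (x axis, percent) in each of 12 gated cell groups (y axis), with the number of serpin UMIs of the group to the right of its bar. *Serpini1* fills 68.6% of the bar of inhibitory neurons, *Serpine2* 89.6% of that of the oligodendrocyte lineage and *Serpinh1* 59.0% of that of endothelial cells.

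Thinning every cell to 2000 UMIs, so that depth could not set the shares, was used to compare the number of serpins per cell. Of 44 vascular cells that reached this depth, 31.8% held UMIs of 2 or more of the 7 genes and 22.7% held none. Of 6991 excitatory neurons, 0.973% held 2 or more and 83.7% held none. Mural cells stood highest, with 47.6% of 21 cells holding 2 or more.

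**Figure D2:**
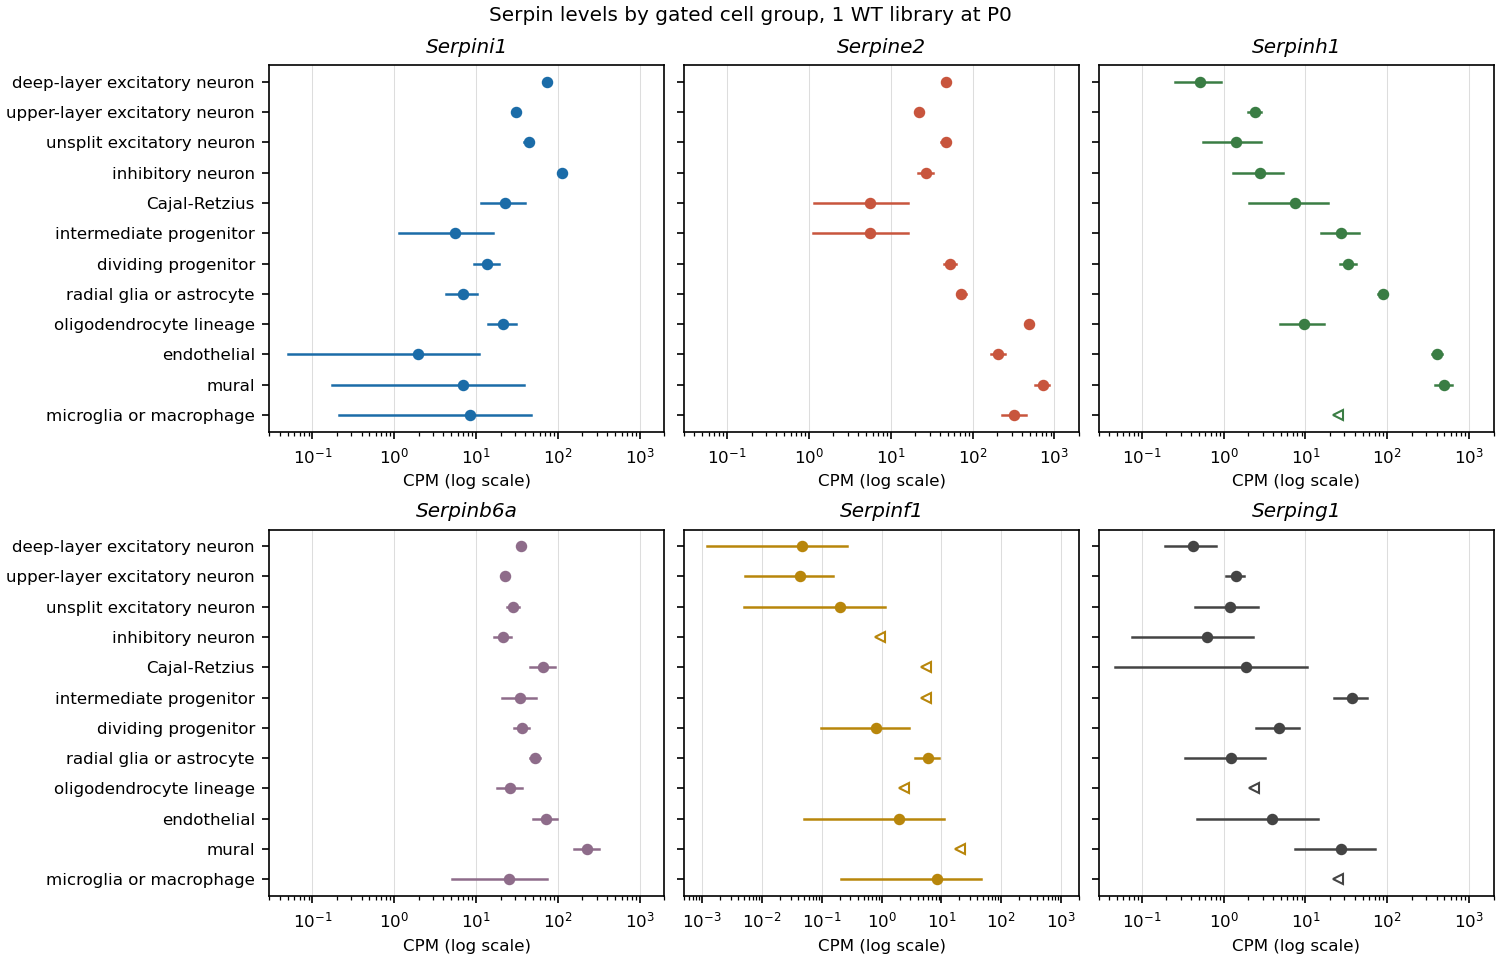
Level of 6 serpins (x axis, CPM, log scale) in 12 gated cell groups (y axis) of the WT library, with exact 95% Poisson intervals; an open triangle marks a group with 0 UMIs and stands at the upper limit that 3 UMIs would give, and *Serpinb1a*, with 7 UMIs in all, is not drawn. *Serpini1* runs from 1.97 CPM in endothelial cells to 113 CPM in inhibitory neurons, and *Serpinh1* from 0.515 CPM in deep-layer neurons to 497 CPM in mural cells.

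The 3 promoters printed next belong to 3 of the 4 most abundant serpins, a pair (*Serpini1*, *Serpine2*) that stood higher and one gene (*Serpinh1*) that stood lower in deep-layer than in upper-layer neurons. They cover 250 bases before to 50 bases after the annotated start in RefSeq for GRCm38.p6, 5′ to 3′ on the strand of the gene. Capitals mark matches on either strand to GGGCGG (the GC box, the core letters bound by Sp factors), CCAAT, GAANNTTC (the inner letters of a heat shock element) and CAGATG (an E-box of the kind bound by proneural factors); matches that touch or overlap run together, and a match on the other strand appears as its reverse complement.
Serpini1, chr3:75557243-75557542, plus strand: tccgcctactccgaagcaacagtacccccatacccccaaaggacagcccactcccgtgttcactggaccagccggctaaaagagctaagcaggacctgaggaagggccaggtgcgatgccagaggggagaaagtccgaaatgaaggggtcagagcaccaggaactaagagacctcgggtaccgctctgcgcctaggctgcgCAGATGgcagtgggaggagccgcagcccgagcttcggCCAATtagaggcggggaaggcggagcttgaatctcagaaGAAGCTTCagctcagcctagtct
Serpine2, chr1:79858616-79858915, minus strand: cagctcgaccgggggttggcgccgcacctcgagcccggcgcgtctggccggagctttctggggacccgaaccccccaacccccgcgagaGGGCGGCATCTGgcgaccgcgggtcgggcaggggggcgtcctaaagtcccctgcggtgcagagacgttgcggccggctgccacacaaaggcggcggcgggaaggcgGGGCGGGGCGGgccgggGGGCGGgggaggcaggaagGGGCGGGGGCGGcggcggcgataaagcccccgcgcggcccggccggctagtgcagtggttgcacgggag
Serpinh1, chr7:99353190-99353489, minus strand: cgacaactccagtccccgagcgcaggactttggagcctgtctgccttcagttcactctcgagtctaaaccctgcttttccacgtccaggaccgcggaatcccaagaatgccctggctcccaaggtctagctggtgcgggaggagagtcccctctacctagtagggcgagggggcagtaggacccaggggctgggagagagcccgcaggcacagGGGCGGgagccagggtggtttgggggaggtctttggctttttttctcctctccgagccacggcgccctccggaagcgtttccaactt
The *Serpine2* window was 77.7% G and C, held 6 matches to GGGCGG, a pair of them overlapping by a base, and 1 to CAGATG. The *Serpini1* window, at 60.0% G and C, held 1 match to CAGATG, 1 to the CCAAT box and 1 to the heat shock letters, and it held no GC box. The *Serpinh1* window, at 62.3% G and C, held 1 GGGCGG and none of the other motifs, the heat shock letters included. Over 32851 mouse promoters of the same length the median was 52.7% G and C, and 35.7% held GGGCGG, 37.4% CCAAT, 17.2% CAGATG, 13.6% TATAAA and 7.86% GAANNTTC. TATAAA was found in none of the 3 windows. Windows were at hand for 5 of the 7 genes, and a match describes the letters only.

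*Serpini1* encodes neuroserpin, a secreted inhibitor of tissue plasminogen activator that neurons are known to make. Among the gated groups its level was highest in inhibitory and deep-layer neurons here, while upper-layer neurons held 37.3% of its UMIs. The 2027 cells that passed no gate held it at 70.5 CPM, from 150 UMIs. Its level was 113 CPM (102 to 125, from 361 UMIs) in inhibitory neurons, 74.2 CPM (70.6 to 77.9, from 1585 UMIs) in deep-layer neurons and 31.1 CPM (29.5 to 32.7, from 1440 UMIs) in upper-layer neurons. Unsplit excitatory neurons lay between the layers at 44.03 CPM. Below these neurons came Cajal-Retzius cells at 22.4 CPM and the oligodendrocyte lineage at 21.5 CPM. Dividing progenitors held 13.6 CPM and radial glia or astrocytes 6.87 CPM. In the 4 Cajal-Retzius cells not near a second gate the level was 72.0 CPM. That value rests on few UMIs, since all 33 Cajal-Retzius cells together held 12. From upper-layer neurons through Cajal-Retzius cells and the oligodendrocyte lineage to dividing progenitors, the interval of the ratio between neighbours held 1 each time. Endothelial cells and mural cells held 1 UMI each.

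Deep-layer neurons held 2.39 times (2.22 to 2.56) the *Serpini1* level of upper-layer neurons, and inhibitory neurons held 2.53 times (2.27 to 2.82) that of excitatory neurons together. The lead of inhibitory over deep-layer neurons was smaller, at 1.52 times (1.36 to 1.71), and it was 1.08 after thinning. Excitatory neurons held 14.6 times (4.03 to 120.2) the level of vascular cells, a ratio that rests on 2 vascular UMIs and ran from 4.14 to 33.3 under other settings. After thinning, 14.6% of deep-layer neurons, 14.2% of inhibitory neurons, 6.28% of upper-layer neurons and 1.28% of radial glia or astrocytes held a *Serpini1* UMI. None of 44 thinned vascular cells did, which allows up to 6.82%. Here and below, the limit given for a 0 is that of 3 counts, not the upper end of an exact interval. Before thinning, a UMI was held by 47.4% of deep-layer neurons (median depth 10228 UMIs), 31.7% of inhibitory neurons (4803.5 UMIs), 21.0% of upper-layer neurons (8133.5 UMIs), 4.34% of radial glia or astrocytes (7231.5 UMIs) and 2 of 50 vascular cells (7150 UMIs).

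Within the neurons, *Serpini1* followed the markers of layers and of interneuron classes. Excitatory neurons with a UMI of *Tle4*, a layer VI factor, held 72.6 CPM against 31.1 CPM in those without, a ratio of 2.34 (2.18 to 2.50). For *Cplx3* and *Nxph4*, which mark the subplate, the ratios were 2.52 (2.07 to 3.05) and 2.16 (1.94 to 2.40). Neurons with *Inhba* or *Pou3f2* held less, at ratios of 0.439 (0.403 to 0.478) and 0.472 (0.436 to 0.511). Since cells sharing these markers overlap, the ratios are not separate observations.

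Among inhibitory neurons, those with *Lhx6*, a factor of the interneurons born in the medial ganglionic eminence, held 174 CPM of *Serpini1* against 54.1 CPM in those without, a ratio of 3.23 (2.53 to 4.15). *Nxph1* (3.67, 2.84 to 4.77) and *Sst* (2.34, 1.89 to 2.89) went the same way. Cells with *Sp8*, *Prox1* or *Adarb2*, markers of interneurons from the caudal ganglionic eminence, held less, with ratios of 0.244 (0.153 to 0.373), 0.422 (0.284 to 0.607) and 0.442 (0.331 to 0.581). *Meis2*, a marker of striatal-type and other non-cortical inhibitory cells, gave 0.427 (0.335 to 0.542). *Serpine2*, at a lower level, went the other way for several of these markers, with 2.29 (1.47 to 3.59) for *Adarb2*, 2.21 (1.36 to 3.51) for *Prox1* and 0.488 (0.299 to 0.779) for *Nxph1*.

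**Figure D3:**
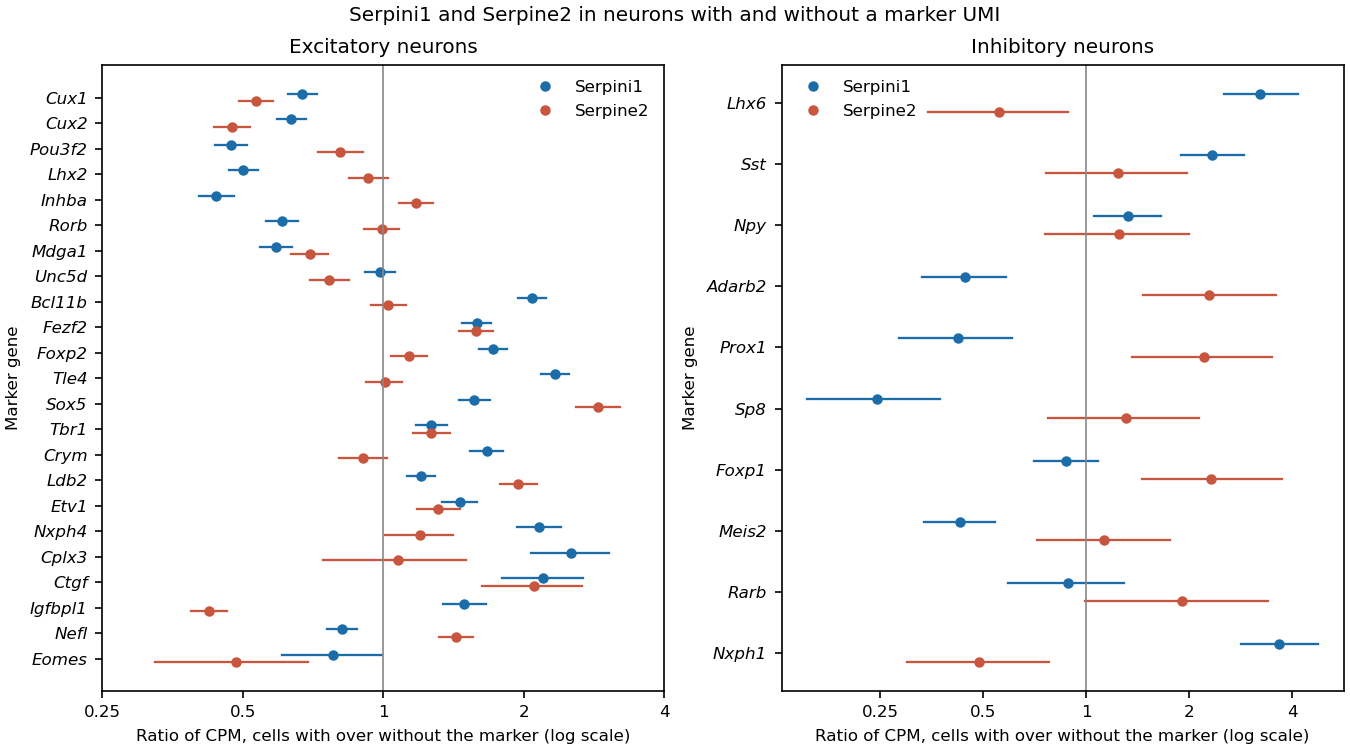
Ratio of the CPM of *Serpini1* and *Serpine2* in cells with over cells without a UMI of each marker gene (x axis, log scale), in excitatory neurons (left) and inhibitory neurons (right), with exact 95% intervals. *Serpini1* points lie at 3.23 for *Lhx6* and 0.244 for *Sp8* in inhibitory neurons, and at 2.34 for *Tle4* and 0.439 for *Inhba* in excitatory neurons.

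*Serpine2* encodes glia-derived nexin, which inhibits thrombin, urokinase and plasmin at the cell surface. It was highest in mural cells and in the oligodendrocyte lineage, at 717 CPM (586 to 869, from 104 UMIs) and 495 CPM (457 to 536, from 623 UMIs). Microglia or macrophages held 325 CPM (231 to 445, from 39 UMIs) and endothelial cells 203 CPM (166 to 246, from 103 UMIs). After thinning these 2 levels were 208 and 113 CPM, and the endothelial one was 99.8 CPM without cells near a second gate. Radial glia or astrocytes held 73.1 CPM (64.0 to 83.1, from 234 UMIs), dividing progenitors 53.6 CPM, deep-layer neurons 46.8 CPM and upper-layer neurons 22.2 CPM. Cajal-Retzius cells and intermediate progenitors were lowest, each with 3 UMIs.

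Single cells carried much of the level in the small groups. Of the 39 UMIs in microglia or macrophages, 15 came from 1 cell, and without it the level was 222 CPM. In endothelial cells 1 cell held 26 of 103 UMIs while the median was 1 UMI. In mural cells the median was 3 and the highest 23 UMIs. Without that highest cell the mural level was 582 CPM, beside 482 CPM in the oligodendrocyte lineage without its own highest cell. In the oligodendrocyte lineage the signal was spread widely, with a UMI in 123 of 170 cells, a median of 2 and a highest of 22.

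Against excitatory neurons, the *Serpine2* level was 15.9 times (14.5 to 17.4) as high in the oligodendrocyte lineage, 10.2 times (8.79 to 11.8) in vascular cells and 2.34 times (2.04 to 2.68) in radial glia or astrocytes. As a mean over the CPM of single cells, which gives shallow cells equal weight, the first 2 ratios were 25.5 and 18.1. Mural cells held 3.53 times (2.66 to 4.68) the level of endothelial cells and 1.45 times (1.17 to 1.79) that of the oligodendrocyte lineage. With cells near a second gate left out, mural cells held 8.34 times the endothelial level. After thinning, 57.1% of mural cells, 51.0% of oligodendrocyte lineage cells, 17.4% of endothelial cells and 9.49% of radial glia or astrocytes held a UMI, against 4.06% of excitatory neurons. Before thinning these were 80.0%, 72.4%, 56.0%, 23.1% and 15.9%, with 6110, 7286, 13281, 7231.5 and 8916.5 UMIs in the median cell.

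The *Serpine2* level was higher the more oligodendrocyte lineage markers a cell held. It was 30.03 CPM (28.8 to 31.3) in 9902 cells with none of the 9 markers, 61.3 CPM with 1, 103 CPM with 2, 140 CPM with 3 to 4 and 567 CPM (522 to 615) in 122 cells with 5 or more. Within the lineage, cells with *Cspg4*, which encodes the NG2 proteoglycan of oligodendrocyte precursors, held 657 CPM against 125 CPM in those without, a ratio of 5.26 (3.91 to 7.21). For *Gpr17*, a receptor of committed precursors, the ratio was 2.29 (1.96 to 2.69), and for the mitotic gene *Mki67* it was 0.532 (0.420 to 0.667). The mural marker count gave a different shape, with 34.0 CPM (15.6 to 64.6) in 28 cells of any group with 3 to 4 mural markers. The level was 476 CPM (411 to 548) in 26 cells of any group with 5 or more. These 26 cells held 192 UMIs and the mural gate 104, so part of this signal came from cells of other gates.

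In excitatory neurons *Serpine2* was 2.10 times (1.93 to 2.30) as high in deep as in upper layers. With 0, 1, 2, 3 to 4 and 5 or more deep-layer markers detected, these neurons held 10.3, 17.7, 24.1, 47.6 and 37.4 CPM. Of the markers examined there, the widest difference was at *Sox5*, a deep-layer factor, at 42.0 CPM with and 14.6 CPM without it, a ratio of 2.88 (2.59 to 3.21). Neurons with *Igfbpl1*, a gene of young neurons, held 25.4 CPM against 60.1 CPM in those without, a ratio of 0.422 (0.387 to 0.462). For *Tle4*, at which *Serpini1* differed, the interval of the *Serpine2* ratio held 1 (0.920 to 1.099). In radial glia or astrocytes, cells with *Aqp4*, a water channel of astrocytes, held 1.68 times (1.29 to 2.19) the *Serpine2* level of the rest, and cells with *Hopx*, a radial glia gene, held 0.349 times (0.254 to 0.473).

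Proteases, receptors and other genes of the plasminogen activator and thrombin system were listed as a group of 15. Between vascular cells and excitatory neurons 10 of the 15 held enough UMIs to compare (at least 20 over both groups); 4 were higher by at least 2-fold with an interval that did not hold 1, and 3 were lower. Over all 18101 genes compared, 16.8% were higher and 17.1% lower by this rule. The median ratio of the 10 was 0.668 beside 0.706 over all genes. *F2* (0 UMIs in vascular cells against 72) reached 20 UMIs only through excitatory neurons. Without such genes 4 of 9 were higher and 3 lower (20.1% and 19% over all genes), with a median of 0.807 beside 1.001. *F2r*, the thrombin receptor, held 517 CPM in mural cells, where *Serpine2* was highest, against 57.2 CPM in endothelial cells and 13.8 CPM in excitatory neurons. *Prss12* (neurotrypsin) held 8.74 CPM in excitatory neurons and 1.53 CPM in vascular cells, and *Vldlr*, a receptor of the LDL receptor family, 120 CPM and 6.13 CPM, while the related *Lrp8* held 163 CPM and 564 CPM. *Plat*, the tissue plasminogen activator that neuroserpin inhibits, was added after its values were seen: it held 284 CPM in vascular cells, 37.2 CPM in radial glia or astrocytes and 3.15 CPM in excitatory neurons, an order opposite to that of *Serpini1*. In radial glia or astrocytes against excitatory neurons, 5 of 10 genes of this list were higher and 2 lower (19.1% and 14.3% over all genes). The median ratio was 1.71 beside 0.983 over all genes. *Tnc*, which also served as a radial glia marker, was among the 5, so its call was not independent of the gates. Between deep and upper layers 0 of 9 were higher and 1 was lower, beside 6.8% and 5.14% over all genes.

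*Serpinh1* encodes Hsp47, a chaperone of the endoplasmic reticulum that binds procollagen and inhibits no protease. Vascular cells held it at 426 CPM (378 to 480, from 278 UMIs), with 497 CPM (389 to 625) in mural cells and 406 CPM (353 to 466) in endothelial cells. Radial glia or astrocytes came next at 87.7 CPM (77.8 to 98.6, from 281 UMIs), then dividing progenitors at 33.2 CPM, intermediate progenitors at 27.6 CPM and the oligodendrocyte lineage at 9.54 CPM. Neurons were near the bottom, with 2.82 CPM in inhibitory, 2.42 CPM in upper-layer and 0.515 CPM in deep-layer neurons. The 28 microglia or macrophages held 0 UMIs, which allows a level of up to 25.02 CPM.

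The vascular level was 238 times (193 to 296) that of excitatory neurons and 4.86 times (4.10 to 5.75) that of radial glia or astrocytes, which in turn stood 49.1 times (39.7 to 60.9) above excitatory neurons. Mural and endothelial cells did not differ beyond counting error, at a ratio of 1.22 (0.921 to 1.61). Of the endothelial cells 23 of 25 held a UMI, with a median of 4 and a highest of 31, and of the mural cells 17 of 25, with a median of 3 and a highest of 7. After thinning, 59.1% (43.2 to 73.7) of vascular cells, 15.9% (12.4 to 19.9) of radial glia or astrocytes and 0.372% (0.243 to 0.544) of excitatory neurons held a UMI, against 80.0%, 43.4% and 1.52% before thinning, with 7150, 7231.5 and 8916.5 UMIs in the median cell.

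Over all cells of the library, *Serpinh1* was higher the more radial glia markers a cell held. It went from 1.29 CPM in 6777 cells with none to 3.65 CPM with 1 and 9.11 CPM with 2. With 3 to 4 markers it was 60.6 CPM, and with 5 or more 79.0 CPM. Vascular cells were counted in these values, and endothelial cells held a median of 3 radial glia markers. Their part in the rise was not tested. Upper-layer neurons held 4.70 times (2.53 to 9.68) the level of deep-layer neurons, although 9 of the 112 upper-layer UMIs came from 1 cell. Excitatory neurons with *Eomes*, a gene of the intermediate progenitor stage, held 11.7 CPM against 1.51 CPM in those without, a ratio of 7.73 (4.70 to 12.2). Those with *Ctgf*, a subplate marker, held 9.19 CPM from 10 UMIs, a ratio of 5.48 (2.56 to 10.4). Dividing progenitors held 0.378 times (0.292 to 0.485) the level of radial glia or astrocytes, and 0.226 times after thinning.

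The 22 genes listed for collagen and its processing showed the same tilt towards vessels. Against excitatory neurons, 17 of the 20 with enough UMIs were higher in vascular cells and 0 were lower (16.8% and 17.1% over all genes), with a median ratio of 30.3 beside 0.706 over all genes. *Col1a2*, *Col3a1* and *Col18a1* reached 20 UMIs only through vascular cells, and without such genes 14 of 17 were higher (20.1% over all genes) with a median of 10.0 beside 1.001. *Col4a1* and *Col4a2*, the chains of basement membrane collagen, held 2613 and 1763 CPM in vascular cells against 6.80 and 6.94 CPM. *Sparc*, a collagen-binding matrix protein, held 3654 CPM against 1.93 CPM, and the enzymes *P4hb* and *Colgalt1* and the isomerase *Ppib* differed by 2.62, 2.45 and 2.25 times. In radial glia or astrocytes 11 of 19 were higher and 0 lower (19.1% and 14.3% over all genes, median ratio 2.81 beside 0.983), or 9 of 17 without *Col1a2* and *Col18a1*, which reached 20 UMIs only with the radial glia counts. Without such genes 18.7% of all genes were higher and 14.7% lower. In radial glia or astrocytes *Sparc* was at 497 CPM, but *Col4a1* and *Col4a2* were at 10.6 and 3.75 CPM. Between deep and upper layers 1 of 17 was higher, *Col5a1*, which reached 20 UMIs only through the deep layers, and 2 were lower, *Col4a1* (0.484, 0.377 to 0.615) and *Sparc* (0.489, 0.297 to 0.774). Over all genes 6.8% were higher and 5.14% lower.

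**Figure D4:**
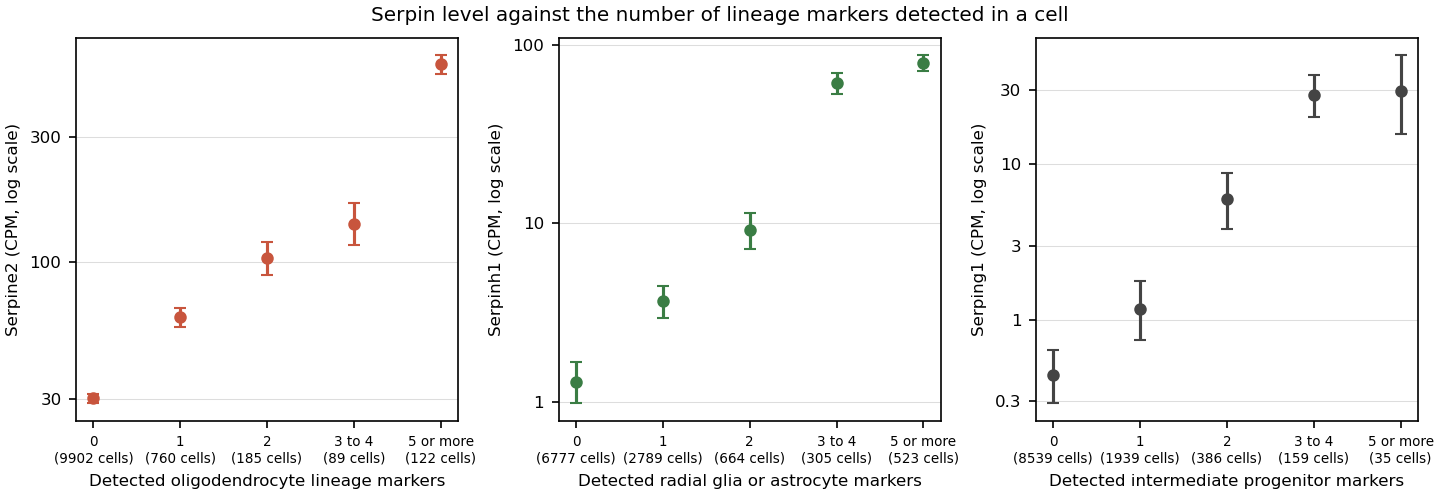
Level of *Serpine2*, *Serpinh1* and *Serping1* (y axes, CPM, log scale, exact 95% Poisson intervals) against the number of markers of the oligodendrocyte lineage, of radial glia or astrocytes and of intermediate progenitors detected in a cell (x axes, with the number of cells). All cells of the library were counted, vascular cells included. The first and the last point are 30.03 and 567 CPM for *Serpine2*, 1.29 and 79.0 CPM for *Serpinh1*, and 0.441 and 29.5 CPM for *Serping1*.

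*Serpinb6a* and *Serpinb1a* belong to the clade of serpins that stay inside the cell, where they guard against proteases leaking from granules and lysosomes. *Serpinb6a* was the most evenly spread of the 4 most abundant genes. It held 228 CPM (157 to 320, from 33 UMIs) in mural cells, 71.0 CPM (49.7 to 98.3) in endothelial cells, 65.4 CPM (45.6 to 91.0) in Cajal-Retzius cells and 52.8 CPM (45.1 to 61.4) in radial glia or astrocytes. The 8 other groups lay between 21.3 CPM in inhibitory neurons and 36.4 CPM in dividing progenitors, and no 2 neighbours among them differed beyond their intervals. A UMI was found in 21 of 33 Cajal-Retzius cells, which were the deepest group at a median of 16414 UMIs.

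Vascular cells held 3.95 times (3.06 to 5.02) the *Serpinb6a* level of excitatory neurons, Cajal-Retzius cells 2.44 times (1.70 to 3.41) and radial glia or astrocytes 1.97 times (1.67 to 2.31). The vascular ratio was 6.22 as a mean over cells, and the Cajal-Retzius ratio 4.43 and the radial glia ratio 2.38 after thinning. Without cells near a second gate, the 4 Cajal-Retzius cells left held 108 CPM, 4.02 times the excitatory level, a value that rests on few UMIs. Mural cells held 3.21 times (1.94 to 5.29) the endothelial level, and deep-layer neurons 1.55 times (1.41 to 1.71) the upper-layer level. After thinning, 28.6% of mural cells, 18.8% of 32 Cajal-Retzius cells, 9.49% of radial glia or astrocytes and 4.08% of excitatory neurons held a UMI, with unthinned shares of 68.0%, 63.6%, 30.8% and 20.8%. *Serpinb6a* has close copies (*Serpinb6b*, *Serpinb6c* and others) among which reads could be split in counting, and its level is uncertain to that degree.

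*Serpinb1a*, an inhibitor of neutrophil elastase and related enzymes, was barely present, with 7 UMIs in 7 cells. Of these, 4 lay in upper-layer neurons, 2 in dividing progenitors and 1 in a radial glia cell or astrocyte. Vascular cells held 0, which allows up to 4.60 CPM. Like *Serpinb6a* it has near copies, of which *Serpinb1b* held 9 UMIs. Of 10 listed granule and lysosomal proteases, 5 could be compared between vascular cells and excitatory neurons, 3 were higher and 1 was lower (16.8% and 17.1% over all genes). *Ctsh* (161 UMIs in vascular cells against 7) and *Prtn3* (0 against 676) reached the minimum of 20 UMIs only through the group where they were high. Of the 3 others 2 were higher and 0 lower (20.1% and 19% over all genes without such genes). *Ctsl* (cathepsin L) held 531 against 88.2 CPM, *Ctsh* 247 against 0.0963 CPM and *Ctsk* 35.3 against 0.427 CPM, while *Prtn3* held 0 UMIs in vascular cells and 9.30 CPM in excitatory neurons.

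*Serping1* encodes the inhibitor of the first complement component, which also blocks the kallikrein of the contact system and is known as a product of liver, fibroblasts and vessel walls. With 130 UMIs in 113 cells it was rare, and among the gated groups its highest level fell in intermediate progenitors, at 36.8 CPM (22.5 to 56.8, from 20 UMIs in 18 of 68 cells). Mural cells held 27.6 CPM (7.52 to 70.6, from 4 UMIs), dividing progenitors 4.80 CPM (2.48 to 8.38) and endothelial cells 3.94 CPM (0.478 to 14.2, from 2 UMIs). Without cells near a second gate, dividing progenitors held 1.98 CPM, outside this interval. Upper-layer neurons held 1.403 CPM (1.08 to 1.79), radial glia or astrocytes 1.25 CPM (0.340 to 3.20) and deep-layer neurons 0.421 CPM (0.193 to 0.799). The oligodendrocyte lineage and the microglia or macrophages held 0 UMIs, which allows up to 2.38 and 25.02 CPM. The cell with most *Serping1* held 4 UMIs of 614 and passed no gate, and with gates at 2 markers it was the single cell in the fibroblast gate.

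Intermediate progenitors held 33.4 times (19.4 to 55.1) the *Serping1* level of excitatory neurons, and did not differ from mural cells beyond counting error (1.33, 0.447 to 5.36). After thinning, 4 of 67 intermediate progenitors held a UMI, or 5.97% (1.65 to 14.6), against 0.215% (0.120 to 0.354) of excitatory neurons. Before thinning these were 26.5% and 0.954%, with 7883.5 and 8916.5 UMIs in the median cell. The level was higher the more intermediate progenitor markers a cell held, from 0.441 CPM (0.291 to 0.642) in 8539 cells with none to 1.18 CPM with 1, 5.97 CPM with 2, 27.9 CPM (20.1 to 37.8) with 3 to 4 and 29.5 CPM (15.7 to 50.4) in 35 cells with 5 or more.

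The same tilt was seen among cells gated as excitatory neurons. These cells were also counted in the levels by marker number, and *Eomes* is a marker of the intermediate progenitor gate. The tilt at *Eomes* is therefore not a separate observation. Excitatory neurons with an *Eomes* UMI (215 cells) held *Serping1* at 16.3 CPM against 0.679 CPM in the rest, a ratio of 24.0 (14.8 to 38.3). Those with *Unc5d*, a receptor of migrating upper-layer cells, held 2.88 CPM against 0.299 CPM, a ratio of 9.63 (5.43 to 18.2). Neurons with *Nefl*, a neurofilament gene of more mature cells, held less (0.237, 0.109 to 0.463). Upper-layer neurons held 3.33 times (1.65 to 7.61) the deep-layer level, with 7.88 under gates at 5 markers and 1.84 as a mean over cells. Vascular cells held 8.36 times (2.98 to 19.0) the level of excitatory neurons, from 6 UMIs. With gates at 2 markers the endothelial and mural cells held 8.57 times (3.05 to 19.5), still from 6 UMIs, and 14.3 times once the fibroblast-gated cell was counted with them. Of 12 complement and contact proteases, 2 (*Masp1* and *Masp2*) held enough UMIs to compare between vascular cells and excitatory neurons. Both reached the minimum of 20 UMIs only through excitatory neurons (258 and 164 UMIs), and vascular cells held 0 UMIs of both. Neither was called (16.8% higher and 17.1% lower over all genes). At the depth of the 50 vascular cells, this cannot tell a lower level from an equal one.

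*Serpinf1* encodes PEDF, a secreted factor without inhibitory activity that supports neurons and restrains vessel growth. Of its 28 UMIs, 19 lay in radial glia or astrocytes, at 5.93 CPM (3.57 to 9.26), in 10 of 438 cells. After thinning to 2000 UMIs a cell the level was 17.1 CPM, outside this interval. Their level was 108 times (35.8 to 436) that of excitatory neurons, which held 4 UMIs, and 164 times as a mean over cells. Without the highest cell, which held 5 UMIs, the level was 4.38 CPM. After thinning, 2.31% (1.06 to 4.34) of radial glia or astrocytes held a UMI and 0 of 6991 excitatory neurons did, which allows up to 0.0429%. Vascular cells held 1 UMI, an endothelial one, and their ratio to excitatory neurons was 27.9 (0.566 to 282), so that no difference was detectable at this depth. Among candidate PEDF receptors, *Pnpla2* held 209 CPM in vascular cells, 34.3 CPM in radial glia or astrocytes and 6.43 CPM in excitatory neurons, and *Plxdc2* 88.9, 11.2 and 6.16 CPM. These were the 2 higher in vascular cells of the 4 receptors compared, and 0 were lower (16.8% and 17.1% over all genes). The median ratio of the 4 was 7.83 beside 0.706 over all genes.

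**Figure D5:**
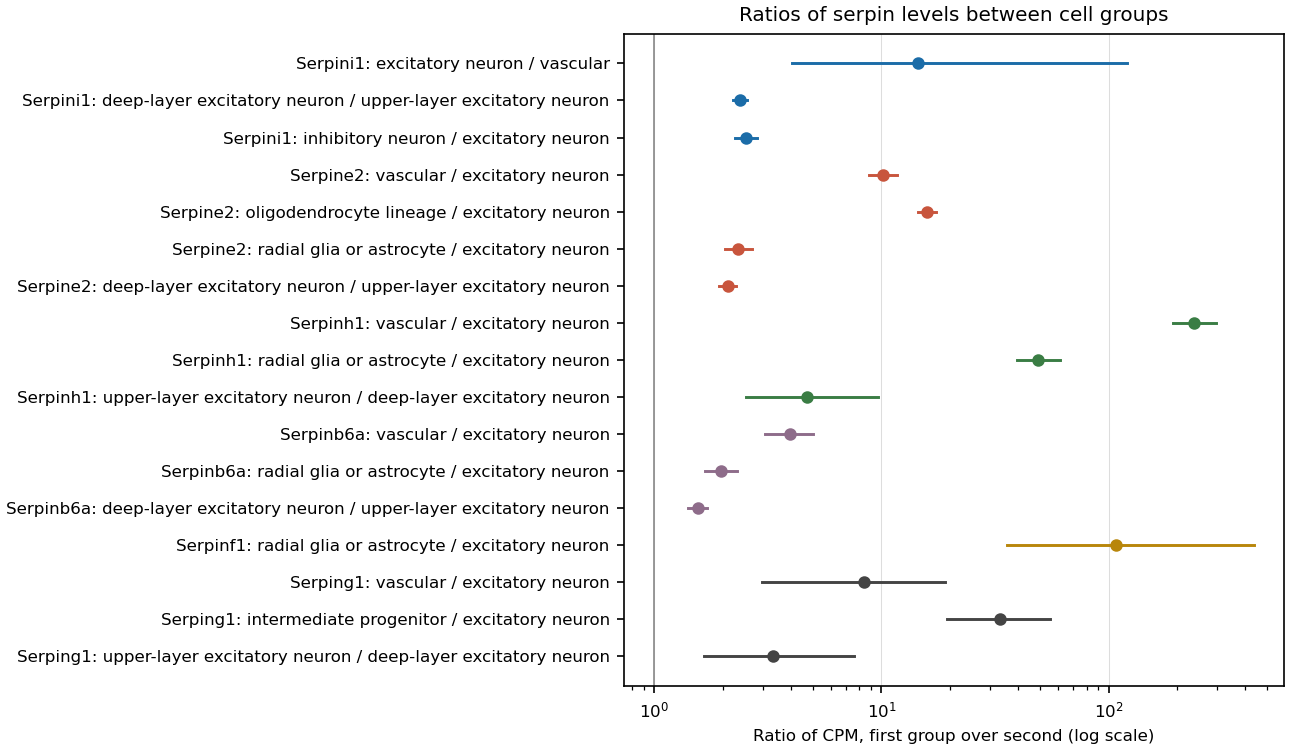
Ratio of the CPM of each serpin between 2 cell groups (x axis, log scale, first group over second as named on the y axis) with exact 95% intervals, and a line at 1. The largest ratio drawn is 238 for *Serpinh1* in vascular cells over excitatory neurons, and the smallest is 1.55 for *Serpinb6a* in deep-layer over upper-layer neurons.

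A 2-fold difference between vascular cells and neurons was common over all genes. Of the 7 serpins, 5 held at least 20 UMIs over vascular cells and excitatory neurons, and 4 (*Serpine2*, *Serpinh1*, *Serpinb6a* and *Serping1*) were higher by at least 2-fold with an interval that did not hold 1, while *Serpini1* was lower. For *Serpini1*, vascular cells held 2 UMIs against 3244 in excitatory neurons. Over 18101 genes, 16.8% were higher and 17.1% lower by this rule. Between radial glia or astrocytes and excitatory neurons 6 serpins could be compared. *Serpinf1* reached 20 UMIs only through the group where it was high (19 UMIs against 4), so its call was fixed by that minimum. Of the other 5, *Serpine2* and *Serpinh1* were higher and *Serpini1* was lower, at 0.154 times (0.0963 to 0.233), or 0.0959 without cells near a second gate. Over 18205 genes, 19.1% were higher and 14.3% lower. Without genes that reached 20 UMIs only through their higher group, these were 18.7% and 14.7% of 16633. Between deep and upper layers 5 could be compared. *Serpini1* and *Serpine2* were higher in the deep layers and *Serpinh1* and *Serping1* lower, against 6.8% higher and 5.14% lower of 17550 genes. The deep layers held 11 UMIs of *Serpinh1* and 9 of *Serping1*, against 112 and 65 in the upper layers. Both genes thus reached the minimum of 20 UMIs through the upper layers, where they were high. With so few members the counts describe these genes, and *Serpinb6a*, at 1.97 and 1.55, fell short of the 2-fold limit in the latter 2 comparisons. Its radial glia ratio was 2.38 after thinning, past that limit.

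The 48 other serpins added little RNA, with UMIs for 16 of them and 731 UMIs in all. *Serpinc1*, the gene of antithrombin, held 504 UMIs in 477 cells and was spread thinly, at 6.00 CPM in excitatory neurons, 3.43 CPM in radial glia or astrocytes and 15.3 CPM (7.35 to 28.2, from 10 UMIs) in vascular cells. *Serpinb6b*, the near copy of *Serpinb6a*, held 70 of its 73 UMIs in endothelial cells, at 138 CPM (108 to 174) in 17 of 25 cells. Its level there was above the 71.0 CPM of *Serpinb6a*, and mural cells, where *Serpinb6a* was highest, held 0 UMIs of it. Vascular cells of the neonatal cortex thus held *Serpinh1*, *Serpine2*, *Serpinb6b* and *Serpinb6a* at 426, 317, 107 and 106 CPM.

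The genes whose levels ran most alike to each serpin were read from Pearson's r of log2(CPM + 1) over the 12 gated groups of at least 20 cells, among 14840 genes with at least 100 UMIs. The groups share 1 library and differ in size and depth, so the values are a description. For *Serpini1* the first was *Mtx2* (0.961), followed by *Chl1* and *Chd5*. For *Serpine2* it was *Sh3bp4* (0.904), followed by *Metrnl* and *Gm14586*, and for *Serpinh1* it was *Amotl1* (0.987), followed by *Lamb2*, a laminin chain of basement membranes, and *Syde1*. For *Serpinb6a* it was *Rab22a* (0.953), followed by *Cox4i2* and *Arhgef17*. *Serping1* reached 0.902 with *Trrap*, then *Mfap2* and *AC153368.1*.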

How the data were processed

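From 1 WT library, the authors deposited UMI counts per gene and cell barcode that had not been normalized. Per the labels and the study's methods, cortex was dissociated and run on a 10x Chromium 3′ kit (version 3.1), and the submitters' processing notes name STAR, Cell Ranger 2, Seurat and the build mm9. The files give symbols and no coordinates.

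Cells with fewer than 200 detected genes (4 of 11062) were left out. Gates used 139 of 140 listed markers. CPM was computed from summed UMIs without mitochondrial genes, with exact Poisson intervals. Ratios carried exact conditional binomial (Clopper-Pearson) intervals, and shares Clopper-Pearson intervals. For a count of 0, the limit printed is that of 3 counts over the group's cells or UMIs. The ratio intervals and the calling rule given next were tested on simulated Poisson counts, which held no added spread between cells. A gene was called at a ratio of at least 2 or at most 0.5 with an interval without 1, given 20 UMIs over both groups. Counts without genes that reached 20 UMIs only through the group where they were high were added after seeing the data. Thinning drew 2000 UMIs per cell (seed 1), leaving out shallower cells. At its automatic threshold Scrublet marked 0 cells, so a score of 0.2, chosen after the scores were seen, was used (436 cells, 3.94%), as an alternative only. No doublets were removed otherwise.

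The named genes were the 7 serpins, other serpins with at least 50 UMIs, up to 6 genes of each list with most UMIs among those called, and the 3 genes most alike to each serpin with at least 100 UMIs. The serpins and the gene lists were chosen with earlier results of these data known. Python 3.11.15, numpy 2.4.6, scipy 1.17.1, pandas 2.3.3, scanpy 1.11.5 and matplotlib 3.10.9 were used.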

Additional observations from a re-analysis of the deposited data

How the results depend on the processing

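Of 8 alternative settings (gates at 2 or 5 markers, at least 1000 detected genes per cell, cells near a second gate or marked by Scrublet left out, thinning, mitochondrial genes kept in the total, and a mean over the CPM of single cells), none turned the direction of a called ratio. The planned ratios that moved beyond their interval, and the counts that moved by over 1.5 times, were as follows, and the cause was not tested. *Serpini1* in deep over upper layers was 2.13 with gates at 5 markers and 2.14 as a mean over cells. *Serpine2* in radial glia or astrocytes over excitatory neurons was 2.84 after thinning and 3.33 as a mean over cells. Over the same reference, vascular *Serpinb6a* was 6.22 as a mean over cells, and, without cells near a second gate, vascular *Serpinh1* was 326 and vascular *Serpinf1* was 0. Inside their wide intervals, 2 further planned ratios also moved. Vascular *Serping1* over excitatory neurons ran from 8.38 to 14.3, and *Serpini1* in excitatory neurons over vascular cells from 4.14 to 33.3. After thinning, 1441 genes were called higher and 1159 lower in vascular cells, against 3043 and 3093 without it. Ratios between other pairs of groups moved beyond their interval in 33 of 229 further values. *Serpine2* ran from 15.6 to 25.5 in the oligodendrocyte lineage and from 10.2 to 18.1 in vascular cells over excitatory neurons, and from 3.41 to 8.34 in mural over endothelial cells. *Serpinh1* ran from 10.7 to 32.8 in dividing and from 12.6 to 43.2 in intermediate progenitors over excitatory neurons. *Serpini1* in inhibitory over excitatory neurons ran from 1.92 to 2.94, *Serpinb6a* in Cajal-Retzius cells over excitatory neurons from 2.24 to 4.43, and *Serping1* in upper over deep layers from 1.84 to 7.88. The 25 endothelial and 25 mural cells, and 28 or fewer UMIs for *Serpinf1* and *Serpinb1a*, limit what can be seen. No paired analysis was possible because all cells came from 1 library.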
